A study of Mus musculus with 24 samples.

Results

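The comparison described here is the difference between the effects of a high fat diet on mouse quadriceps after short and after long feeding. For every gene it is the high fat minus low fat difference at day 28 less the same difference at day 3, on the log2 scale of array intensity, and it uses all 24 of the 24 arrays of the series, grouped by their titles. Male mice of the strain C57BL/6J (written C56BL/6J in the sample labels) all ate a low fat run-in diet for 3 weeks before they were assigned to palm oil diets. The 4 groups held 6 mice each, with 1 array per mouse. They were low fat (LF, 10% of energy from palm oil) for 3 days, high fat (HF, 45%) for 3 days, LF for 28 days and HF for 28 days. Day 3 mice were 12 weeks old and day 28 mice 16 weeks old, so longer feeding and greater age cannot be told apart. Mouse numbers also differed by group: 2010 to 2019 for LF at day 3, 1767 to 1772 for HF at day 3, 2020 to 2025 for LF at day 28 and 1751 to 1758 for HF at day 28. Any difference between these sets of animals cannot be told apart from the effects of diet and day either. For LF day 3 replicate 1 alone, the extraction text did not name the step that removes genomic DNA.

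Quadriceps is a large thigh muscle built mostly of fast fibres, and in bulk tissue the RNA of fibres is mixed with that of fat cells, macrophages, fibroblasts and vessels. When dietary fat rises, muscle shifts fuel use from glucose to fatty acids, a response set partly by nuclear receptors that sense fatty acids and partly by insulin signalling. Some of this response is immediate, while remodelling of matrix, immune cells and fat stores follows over weeks. The tissue label was checked against 9 skeletal muscle genes. The mean of these genes lay between 13.02 and 13.17 on all arrays, and Acta1, the skeletal alpha actin, lay between 14.20 and 14.32. In such whole tissue, fewer cells of a type and less RNA per cell cannot be told apart.

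The diet effect differed between day 3 and day 28 for 80 of 5793 genes tested, or 1.38%, at an adjusted p under 0.05 (limma's interaction contrast, Benjamini-Hochberg adjustment over all genes tested). The difference was positive for 39 genes (0.673%), which means relatively more RNA on HF at day 28 than at day 3, and negative for 41 (0.708%). Its size ran from 0.31 to 1.76 on the log2 scale, with a median of 0.68, and exceeded 2-fold for 19 genes. At an unadjusted p under 0.05 there were 1089 genes (18.8%). The median SE of the difference over all genes was 0.152.

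The count of 80 depended on single arrays. Leaving out each array in turn gave 19 to 115 called genes, and all 80 kept their sign in every such fit. The count fell outside 1.5 times the full one without LF day 28 replicate 5 or HF day 28 replicate 2 (19 each), HF day 28 replicate 1 or 4 (37 each), LF day 3 replicate 3 (38), LF day 3 replicate 6 or HF day 3 replicate 1 (39 each), and HF day 28 replicate 3 (50). Without LF day 3 replicate 1, the array with the differing extraction text, 64 genes were called, and without HF day 3 replicate 5, whose adipocyte marker mean stood apart, 68 were.

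Single-day calls were far more frequent, with 861 genes (14.9%) called between the diets at day 3 and 726 (12.5%) at day 28. The 240 genes called on both days were 27.9% of the first list and 33.1% of the second, and 234 of them moved in the same direction. Of 621 genes called at day 3 only, 43 had a called difference between the days, and of 486 called at day 28 only, 29 did. Across all 5793 genes the 2 diet effects, which share no arrays, correlated at 0.646 (Pearson) and 0.331 (Spearman), and 59.4% of genes had the same sign on both days. These correlations are across genes, which are not independent replicates.

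The 80 genes were sorted by which single-day effects were called. In 29 genes, termed late, the effect was called at day 28 only. In 43 genes, termed transient, it was called at day 3 only. In 6 genes, termed reversing, it was called on both days with opposite signs. Exoc7 was called on both days with the smaller effect at day 28, and Gcc2 on neither day. No gene with a called difference had a larger effect of the same sign, called on both days, at day 28. The terms describe calls, since an effect that misses the threshold on a day is not shown to be absent there.

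**Figure D1:**
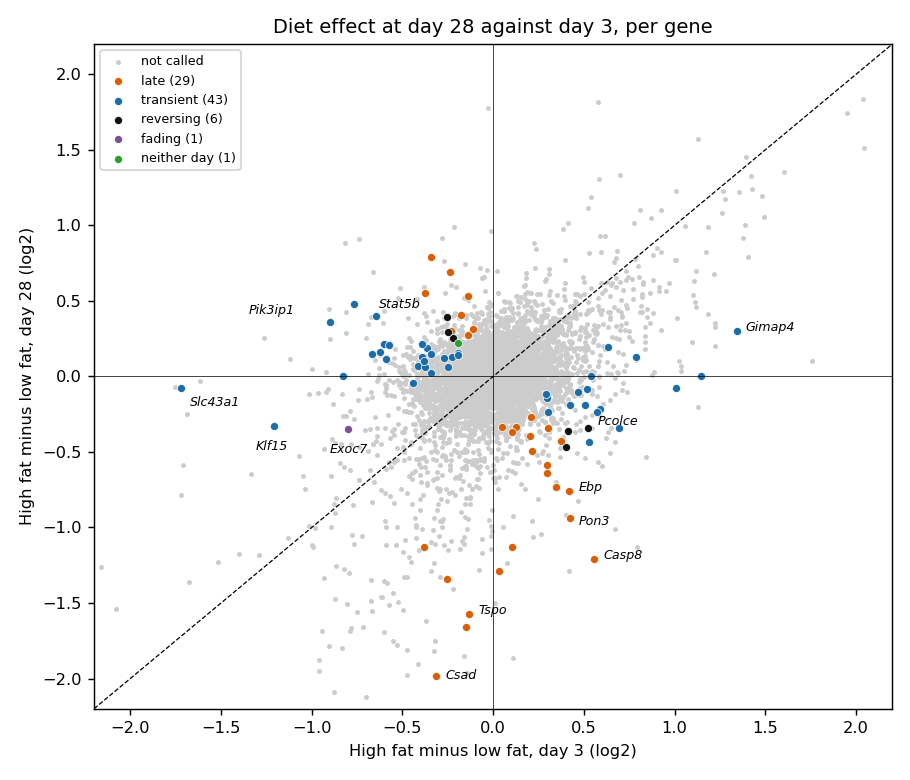
Each point is 1 of the genes tested, with the HF minus LF difference at day 3 on the horizontal axis and at day 28 on the vertical axis, both in log2 units. Grey points were not called, coloured points are the 80 called genes by pattern, and the dashed line marks equal effects. Reversing genes lie in the upper left and lower right fields, as do most late and transient genes. The effect had the same sign on both days in 5 of the 29 late and 8 of the 43 transient genes, beside 59.4% of all genes tested. A called difference between the days favours opposite signs, so these counts are a description. The axes end at 2.2, and 56 genes, none of them called, lie outside.

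Stretches upstream of 4 genes are printed first because these carried the joint lowest adjusted p of all genes, 0.00873, and were named by the rule for the largest differences of each pattern, which the other gene at that p, Gpcpd1, was not. They are an esterase gene (Pon3) and a gene of sterol synthesis (Ebp), both late, and a collagen-processing gene (Pcolce) and a transcription factor gene (Stat5b), both reversing. Each is the 250 bases before the gene's start from RefSeq, build GRCm38.p6, printed 5′ to 3′ on the gene's strand, which is the minus strand for all 4. Capitals mark matches to the GC box (GGGCGG) and the CCAAT box (CCAAT), searched on both strands. The windows are chr6:5256234-5256483 for Pon3, chrX:8193513-8193762 for Ebp, chr5:137611405-137611654 for Pcolce and chr11:100850582-100850831 for Stat5b, for which RefSeq lists 2 promoters.
Pon3: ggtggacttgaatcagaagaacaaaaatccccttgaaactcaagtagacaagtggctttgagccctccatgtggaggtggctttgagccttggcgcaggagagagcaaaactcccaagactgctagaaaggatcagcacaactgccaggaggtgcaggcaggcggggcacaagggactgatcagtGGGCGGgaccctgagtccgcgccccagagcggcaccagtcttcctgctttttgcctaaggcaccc
Ebp: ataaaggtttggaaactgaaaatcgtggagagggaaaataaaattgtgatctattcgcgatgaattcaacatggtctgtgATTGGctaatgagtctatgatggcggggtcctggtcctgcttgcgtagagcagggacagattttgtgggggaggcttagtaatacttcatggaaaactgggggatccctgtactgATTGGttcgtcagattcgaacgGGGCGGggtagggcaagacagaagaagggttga
Pcolce: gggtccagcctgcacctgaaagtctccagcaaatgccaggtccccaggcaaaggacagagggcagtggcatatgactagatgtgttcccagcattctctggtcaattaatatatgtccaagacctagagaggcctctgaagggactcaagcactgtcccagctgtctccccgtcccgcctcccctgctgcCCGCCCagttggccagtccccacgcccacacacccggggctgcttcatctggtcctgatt
Stat5b: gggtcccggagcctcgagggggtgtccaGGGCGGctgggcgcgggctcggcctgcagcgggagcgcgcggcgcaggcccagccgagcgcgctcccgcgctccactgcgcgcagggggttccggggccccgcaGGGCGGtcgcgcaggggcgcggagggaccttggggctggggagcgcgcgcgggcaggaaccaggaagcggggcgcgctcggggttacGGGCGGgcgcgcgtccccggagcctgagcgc

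Pon3 and Pcolce each held 1 GC box match, 65 and 60 bases before the start. Ebp held 1 GC box match at 33 bases and 2 CCAAT matches at 170 and 55 bases. Stat5b held 3 GC box matches, at 222, 118 and 31 bases. None of the 4 windows held the letters TCACNCCAC, a form of the sterol regulatory element, or TATAAA, the TATA box, on either strand. Of 27025 mouse promoters listed, windows of the same length held a GC box match in 32.9%, a CCAAT match in 34.5%, a TATAAA match in 13.0% and the sterol element letters in 1.04%. Among the 72 called genes with a listed promoter the shares were 54.2%, 37.5%, 9.72% and 1.39%, beside 61.1%, 36.5%, 6.49% and 0.906% among 4744 tested genes with one. These matches describe letters in the windows and no more.

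Among the late genes, 21 had a negative and 8 a positive difference. Their day 28 effects ran from 0.27 to 1.98 in size, and in 17 of the 29 the LF and HF arrays did not overlap at day 28, where 8.04% of all genes tested were so separated. Since the pattern was defined by a call at day 28, that count is a description. The late genes with negative differences had a median effect of 0.20 at day 3 and of -0.73 at day 28.

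Pon3 encodes a paraoxonase, an enzyme that hydrolyses lactones and is carried partly on lipoproteins. Its lowest, median and highest log2 levels were 6.05, 6.26 and 6.41 on LF at day 3 and 6.30, 6.49 and 7.18 on HF at day 3. At day 28 they were 6.53, 6.69 and 6.98 on LF and 5.43, 5.79 and 6.25 on HF. The groups overlapped at day 3, where the effect was not called, and at day 28 every HF array lay below every LF array. The HF minus LF difference was 0.42 ± 0.16 (SE) at day 3 and -0.93 ± 0.16 at day 28, and the difference between them was -1.36 ± 0.22 (adjusted p = 0.00873, limma).

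Ebp encodes the sterol isomerase that acts late in cholesterol synthesis. Its levels on LF were 4.77, 5.20 and 5.31 (lowest, median, highest) at day 3 and 5.38, 5.77 and 5.93 at day 28. On HF they were 5.19, 5.44 and 6.11 at day 3 and 4.60, 5.01 and 5.26 at day 28. Over the days the LF arrays moved up without overlap and HF was above LF in median at day 3 but wholly below it at day 28. The diet effects were 0.42 ± 0.14 and -0.76 ± 0.14, and their difference was -1.18 ± 0.20 (adjusted p = 0.00873).

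Casp8, the caspase that starts death receptor signalling, had the largest difference of all called genes. Levels were 2.60, 3.43 and 4.10 on LF and 3.41, 4.03 and 4.64 on HF at day 3, and 4.23, 4.76 and 5.07 on LF and 3.00, 3.25 and 4.59 on HF at day 28. The LF and HF arrays overlapped on both days, and several levels were dim, where the background correction weighs most. The diet effect went from 0.56 ± 0.27 to -1.21 ± 0.27, a difference of -1.76 ± 0.38 (adjusted p = 0.0286). Without LF day 28 replicate 5 the difference was -1.71 and its adjusted p 0.0567. Casp8 was 1 of 4 called genes whose mean was under 4 in some group, beside Csad, Ccrl2 and Iah1.

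Csad makes hypotaurine, the precursor of taurine, from cysteine sulfinate. Its lowest, median and highest levels at day 28 were 4.38, 5.45 and 5.80 on LF and 2.74, 3.28 and 3.57 on HF, with no overlap, and at day 3 were 3.37, 4.22 and 5.15 against 3.57, 3.71 and 4.88. All HF arrays of Csad at day 28 lay under 4, the level used to filter dim genes, so this separation rests on dim values. The Csad effect was -0.31 ± 0.29 at day 3 and -1.98 ± 0.29 at day 28 (difference -1.67 ± 0.41, adjusted p = 0.041), and Csad kept its call in 9 of the 24 fits that left out 1 array each. Gpx8, a peroxidase of the endoplasmic reticulum membrane, had levels of 6.15, 7.09 and 7.33 on LF and 4.97, 5.18 and 5.93 on HF at day 28, again without overlap. Both genes overlapped widely between the diets at day 3. The Gpx8 effect was -0.15 ± 0.23 at day 3 and -1.66 ± 0.23 at day 28, a difference of -1.51 ± 0.33 (adjusted p = 0.0286). Leaving out LF day 28 replicate 5 or HF day 28 replicate 2 put the Gpx8 adjusted p at 0.0567 and 0.0502.

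Tspo, a protein of the outer mitochondrial membrane that binds cholesterol and porphyrins, had levels of 5.68, 6.24 and 6.71 on LF and 5.68, 5.97 and 7.01 on HF at day 3. At day 28 they were 6.48, 7.07 and 7.54 on LF and 5.23, 5.44 and 5.65 on HF. The overlap was wide at day 3 and absent at day 28. The effect was -0.13 ± 0.20 and then -1.57 ± 0.20, a difference of -1.44 ± 0.29 (adjusted p = 0.0249).

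A growth factor gene and a signalling inhibitor showed the same form. Igf1, the insulin-like growth factor that acts on muscle growth, had levels of 5.73, 6.16 and 6.53 on LF and 5.68, 6.24 and 7.04 on HF at day 3, and of 6.35, 6.70 and 6.87 on LF and 4.90, 5.60 and 5.93 on HF at day 28. The diets overlapped at day 3 and were separate at day 28, with LF higher. The Igf1 effect was 0.10 ± 0.20 at day 3 and -1.13 ± 0.20 at day 28 (difference -1.23 ± 0.29, adjusted p = 0.0356), and it lost its call in 7 of the 24 fits that left out 1 array. Rgs2, which shuts off G protein signals, had effects of 0.03 ± 0.21 and -1.29 ± 0.21 (difference -1.32 ± 0.29, adjusted p = 0.0314). Its LF and HF arrays were separate at day 28 only, and it lost its call in 6 of those fits.

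Serpinh1, the collagen chaperone Hsp47, was a late gene with overlapping arrays on both days, at 8.27, 8.59 and 8.90 on LF and 8.80, 8.97 and 9.01 on HF at day 3. At day 28 its levels were 8.79, 9.07 and 9.85 on LF and 8.58, 8.70 and 9.12 on HF, so that HF had the higher median first and the lower one later. Its effects were 0.37 ± 0.14 and -0.43 ± 0.14 (difference -0.80 ± 0.20, adjusted p = 0.0411), and it lost its call in 12 of the 24 fits that left out 1 array. The remaining late genes with a negative difference are given here after their values were seen. Idh1, the cytosolic isocitrate dehydrogenase that supplies NADPH, had a difference of -0.88, Cyba, a subunit of the superoxide-making NADPH oxidase, of -1.08, and Iah1, an esterase, of -1.09. Derl2, of the pathway that removes misfolded proteins from the endoplasmic reticulum, was at -0.47 and Arf4, a small GTPase of vesicle traffic, at -0.48. Irx3, a homeobox factor, stood at -0.94, and Sh3bgrl at -0.71. Rgcc, Ifitm2, Anxa4, Blvra and Lgals1 lay between -0.75 (Rgcc) and -0.38 (Lgals1, the lectin galectin-1).

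The 8 late genes with a positive difference all had a negative effect at day 3 that was not called, and a called positive effect at day 28, with medians of -0.21 and 0.47. Asb15, a muscle-rich member of a family of ubiquitin ligase adaptors, had effects of -0.34 ± 0.18 and 0.79 ± 0.18 (difference 1.13 ± 0.25, adjusted p = 0.0308). Fzd7, a Wnt receptor, and Aebp1, a secreted protein of the matrix, both had a difference of 0.93. Mxi1, which opposes Myc, was at 0.67 (adjusted p = 0.0249), Xpr1, a phosphate exporter, at 0.59 and Sptb, the erythroid and muscle beta spectrin, at 0.53. Lrba and Mindy1 completed the group at 0.42 and 0.41. These 8 were also named after their values were seen.

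Transient genes were 26 with a positive difference, all of them called lower on HF at day 3, and 17 with a negative difference, all called higher on HF at day 3. The medians of the first set were -0.40 at day 3 and 0.13 at day 28, and those of the second 0.54 and -0.11. Arrays of the diets did not overlap at day 3 in 34 of the 43, beside 6.09% of all genes tested, and the pattern again was defined by the day 3 call.

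Slc43a1 encodes a transporter of large neutral amino acids. At day 3 its lowest, median and highest levels were 5.56, 6.49 and 7.03 on LF and 3.84, 4.89 and 5.06 on HF, and at day 28 they were 4.66, 5.13 and 6.00 on LF and 4.68, 5.24 and 5.59 on HF. The diets were separate at day 3 and lay within the same range at day 28. The effect was -1.72 ± 0.25 and then -0.08 ± 0.25, a difference of 1.64 ± 0.36 (adjusted p = 0.0286). Leaving out LF day 28 replicate 5 or HF day 28 replicate 2 put the adjusted p at 0.0567 and 0.0585, with differences of 1.60 and 1.56.

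Pik3ip1, a membrane inhibitor of phosphoinositide 3-kinase, had levels of 8.08, 8.41 and 8.53 on LF and 6.94, 7.52 and 7.80 on HF at day 3, with no overlap. At day 28 its levels were 6.69, 7.75 and 7.97 on LF and 7.45, 7.92 and 8.26 on HF, which overlapped. The effects were -0.90 ± 0.18 and 0.36 ± 0.18, and the difference was 1.26 ± 0.26 (adjusted p = 0.0249, and 0.0502 without HF day 28 replicate 2). Akt2, the main insulin-responsive form of the kinase Akt in muscle, had levels of 8.21, 8.34 and 8.47 on LF and 7.78, 7.85 and 8.06 on HF at day 3, against 8.03, 8.14 and 8.19 on LF and 7.90, 8.09 and 8.25 on HF at day 28. Its arrays too were separate at day 3 and overlapped at day 28. The Akt2 effect was -0.44 ± 0.06 and then -0.05 ± 0.06 (difference 0.40 ± 0.09, adjusted p = 0.0286), and it lost its call without HF day 3 replicate 1 (adjusted p = 0.0515), LF day 28 replicate 5 (0.057) or HF day 28 replicate 2 (0.0585).

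Klf15, a transcription factor induced by glucocorticoids that drives amino acid breakdown, had levels of 8.63, 8.75 and 9.55 on LF and 7.22, 7.83 and 7.98 on HF at day 3. At day 28 its levels were 8.01, 8.29 and 8.60 on LF and 7.68, 8.03 and 8.18 on HF, so the arrays were separate only at the earlier day. Its effect was -1.21 ± 0.16 at day 3 and -0.33 ± 0.16 at day 28 (difference 0.88 ± 0.22, adjusted p = 0.0457). Klf15 kept its call in only 5 of the 24 fits that left out 1 array, with an adjusted p of up to 0.0836. Sqstm1, the autophagy receptor p62, went from -0.38 ± 0.09 to 0.10 ± 0.09 (difference 0.48 ± 0.12, adjusted p = 0.0499), and kept its call in 7 of those 24 fits.

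Ier3, an immediate early gene of cell survival, and Ccrl2, a receptor that binds chemerin, were lower on HF at day 3 with no overlap. Ier3 levels at day 3 were 5.67, 5.88 and 6.15 on LF and 4.50, 5.22 and 5.56 on HF, and its difference was 1.25 ± 0.29 (adjusted p = 0.0352), which lost its call in 6 of the 24 fits that left out 1 array. Ccrl2 had effects of -0.64 ± 0.16 and 0.40 ± 0.16, a difference of 1.04 ± 0.23 (adjusted p = 0.0286, 0.0567 without LF day 28 replicate 5 and 0.0585 without HF day 28 replicate 2). Neither was called between the diets at day 28, where HF had the higher median in both.

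The other positive transient genes are named after their values were seen. Gpcpd1, which splits glycerophosphocholine, went from -0.63 ± 0.10 to 0.16 ± 0.10, a difference of 0.78 ± 0.14 with the joint lowest adjusted p, 0.00873. Stk11, the kinase LKB1 that activates AMPK, had a difference of 0.35 and Tsc1, a brake on mTOR complex 1, also of 0.35. Kcnj11, the pore of the ATP-sensitive potassium channel, stood at 0.79, Pnpla7, a lysophospholipase, at 0.81, and Atp6v0a1, a subunit of the proton pump of lysosomes, at 0.82. Stx17, a SNARE of autophagosomes, was at 0.39, Cyp27a1, the sterol 27-hydroxylase, at 0.49, and Tmem38a, a cation channel of the sarcoplasmic reticulum, at 0.33. Kctd20, Tcp11l2, Kdm8, Zc3hc1, Ypel3, Fxr2, Mospd1, Brap, Hbp1 and Tmem161a had differences between 0.83 (Kctd20) and 0.31 (Tmem161a).

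Among transient genes higher on HF at day 3, the largest differences were in Selenom, Emp1, Gimap4 and S100a4. Selenom, a selenoprotein of the endoplasmic reticulum, had levels of 3.53, 4.15 and 4.56 on LF at day 3, where the HF arrays had a median of 5.23 and reached 5.46, and of 3.94, 4.39 and 5.19 on LF and 4.19, 4.48 and 4.79 on HF at day 28. It was separate at day 3 and overlapped fully at day 28, with a difference of -1.14 ± 0.26 (adjusted p = 0.0352) that lost its call in 7 of the 24 fits that left out 1 array. Emp1, a tetraspan membrane protein, had levels of 6.38, 7.18 and 7.46 on LF and 7.87, 8.09 and 8.27 on HF at day 3 (difference -1.08 ± 0.22, adjusted p = 0.0249). Gimap4, a GTPase known from lymphocytes and endothelium, had effects of 1.34 ± 0.18 and 0.30 ± 0.18 (difference -1.04 ± 0.25, adjusted p = 0.0406), and lost its call in 11 of those 24 fits. S100a4, a calcium-binding protein of fibroblasts and immune cells, had effects of 0.69 ± 0.15 and -0.34 ± 0.15 (difference -1.03 ± 0.21, adjusted p = 0.0249). The arrays of Emp1, Gimap4 and S100a4 were separate at day 3 and overlapped at day 28.

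Sparc, a collagen-binding matrix protein, had levels of 10.22, 10.47 and 11.03 on LF and 10.91, 11.07 and 11.37 on HF at day 3. At day 28 they were 10.06, 10.85 and 11.07 on LF and 10.38, 10.51 and 10.63 on HF, with overlap on both days. The effects were 0.57 ± 0.14 and -0.24 ± 0.14, and the difference of -0.81 ± 0.20 (adjusted p = 0.0411) kept its call in 6 of the 24 fits that left out 1 array. Crtap, which takes part in collagen hydroxylation, had a difference of -0.80. Crtap and the genes that follow were named after their values were seen. Cfl1, the actin-severing protein cofilin, was at -0.70, Msn, which links actin to the membrane, at -0.60, Tubb5, a beta tubulin, at -0.57 and Pls3, an actin-bundling protein, at -0.44. Rrbp1, a ribosome receptor of the endoplasmic reticulum, was at -0.61, and the vesicle traffic genes Stx6, Copz2 and Arf6 were at -0.54, -0.53 and -0.44. Aspa, Zfp703 and Hcfc1r1 stood at -0.96, -0.66 and -0.41.

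The 6 reversing genes had called effects of opposite sign on the 2 days. In Pcolce, Fkbp7 and Capg the HF level was higher at day 3 and lower at day 28. In Stat5b, Rprd1b and Fdft1 it was lower at day 3 and higher at day 28. Their single-day effects were modest, 0.22 to 0.52 in size at day 3 and 0.25 to 0.47 at day 28.

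Pcolce encodes a protein that enhances the cleavage of procollagen. Its lowest, median and highest levels were 7.67, 7.99 and 8.42 on LF and 8.41, 8.54 and 8.73 on HF at day 3, and 8.01, 8.16 and 8.47 on LF and 7.74, 7.87 and 7.97 on HF at day 28. At day 3 the diets barely overlapped with HF higher, and at day 28 they were separate with HF lower. The effect was 0.52 ± 0.10 (adjusted p = 0.00155) and then -0.34 ± 0.10 (adjusted p = 0.0319), a difference of -0.86 ± 0.15 (adjusted p = 0.00873). Pcolce was called in each of the 34 alternative fits tried, as was Pon3.

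Fkbp7, a prolyl isomerase of the endoplasmic reticulum, had levels of 5.29, 5.68 and 6.20 on LF and 6.07, 6.11 and 6.20 on HF at day 3, and of 5.91, 6.06 and 6.52 on LF and 5.37, 5.67 and 5.92 on HF at day 28. The HF arrays sat in the upper part of the LF range at day 3 and overlapped its lower end at day 28. Its effects were 0.40 ± 0.13 and -0.47 ± 0.13 (difference -0.87 ± 0.18, adjusted p = 0.0249, and 0.0502 without HF day 28 replicate 2). Capg, an actin-capping protein rich in macrophages, had levels of 5.02, 5.09 and 5.36 on LF and 5.37, 5.51 and 5.82 on HF at day 3, which did not overlap. Its effects were 0.41 ± 0.12 and -0.36 ± 0.12 (difference -0.77 ± 0.17, adjusted p = 0.0286), and the diets overlapped at day 28.

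Stat5b, the transcription factor through which growth hormone acts, had levels of 8.73, 8.89 and 9.02 on LF and 8.49, 8.65 and 8.77 on HF at day 3. At day 28 they were 8.29, 8.49 and 8.76 on LF and 8.77, 8.94 and 9.02 on HF. HF lay mostly below LF at day 3, and at day 28 every HF array was above every LF array. The effect was -0.25 ± 0.08 (adjusted p = 0.0273) and then 0.39 ± 0.08 (adjusted p = 0.00117), a difference of 0.64 ± 0.11 (adjusted p = 0.00873).

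Fdft1, squalene synthase, commits isoprenoids to sterol synthesis. Its levels were 8.13, 8.21 and 8.50 on LF and 7.96, 8.06 and 8.15 on HF at day 3, and 7.78, 7.94 and 8.02 on LF and 8.08, 8.17 and 8.36 on HF at day 28. The diets overlapped slightly at day 3 and were separate at day 28. Its difference was 0.48 ± 0.10 (adjusted p = 0.0249), opposite in sign to that of Ebp in the same pathway. Rprd1b, which binds RNA polymerase II, had effects of -0.25 ± 0.08 and 0.29 ± 0.08 (difference 0.54 ± 0.11, adjusted p = 0.0249), with overlapping arrays on both days.

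Exoc7, a subunit of the exocyst that tethers vesicles to the plasma membrane, was lower on HF on both days without overlap. Its levels were 9.06, 9.24 and 9.32 on LF and 8.26, 8.41 and 8.61 on HF at day 3, and 8.78, 8.88 and 9.08 on LF and 8.47, 8.54 and 8.76 on HF at day 28. The effect shrank from -0.80 ± 0.08 to -0.35 ± 0.08 (difference 0.45 ± 0.11, adjusted p = 0.0406), and the call was kept in 9 of the 24 fits that left out 1 array. Gcc2, a golgin of the Golgi, was at -0.20 ± 0.07 and 0.22 ± 0.07, with a difference of 0.41 ± 0.10 (adjusted p = 0.0455), and kept its call in 5 of those fits.

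**Figure D2:**
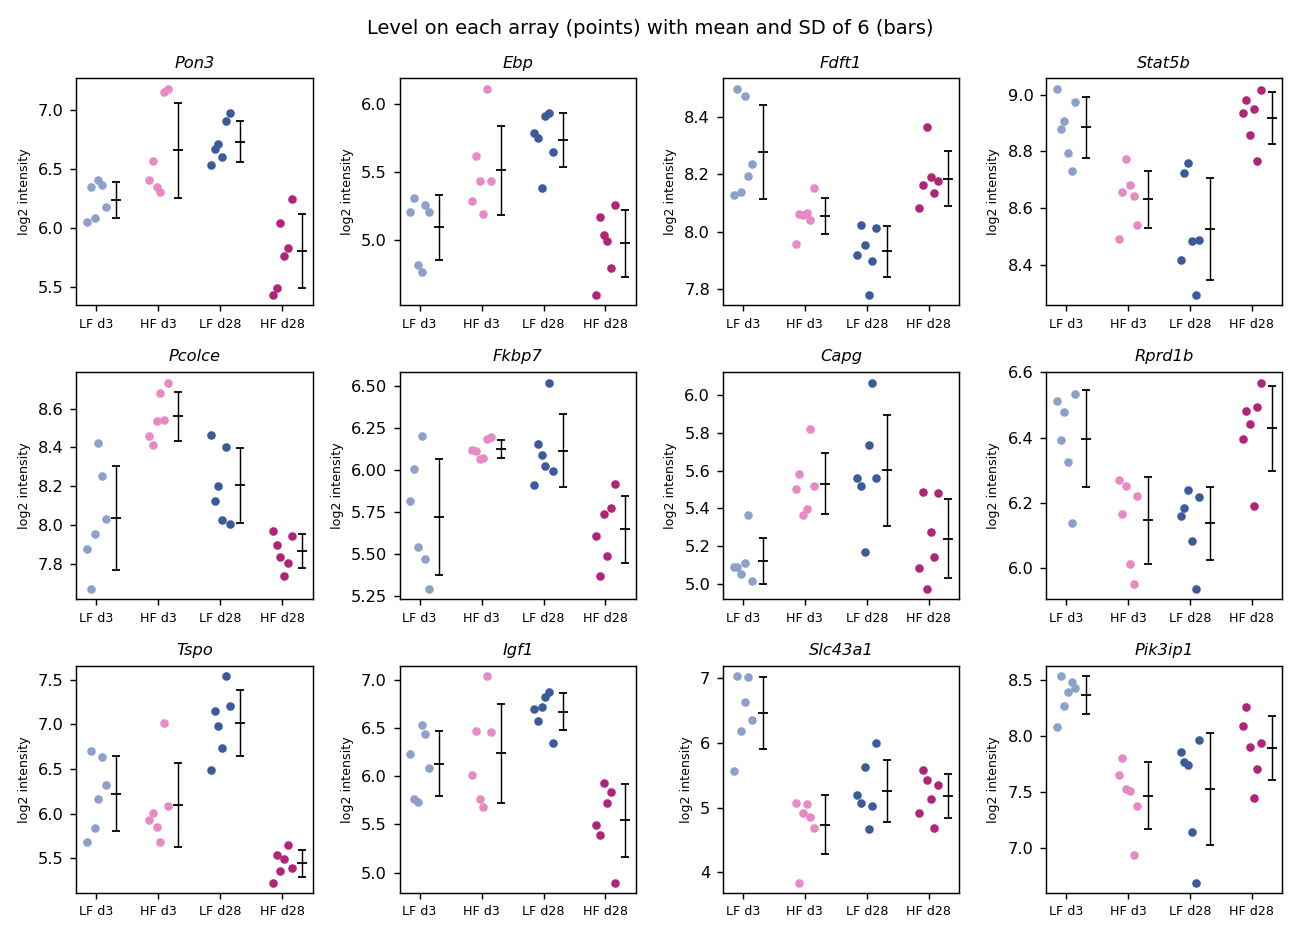
Each point is the log2 intensity of 1 array for 12 of the named genes, with the mean and SD of the 6 arrays of a group beside it. In the upper panels the HF mean lies above the LF mean at day 3 and below it at day 28 for Pon3 and Ebp, and the order is turned for Fdft1 and Stat5b. In all of these panels the arrays of the diets overlap at day 3 and are separate at day 28. The diets do not overlap at day 3 for Slc43a1 and Pik3ip1 nor at day 28 for Tspo and Igf1, and overlap on the other day in each of these 4.

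The same 80 differences can be read as changes from day 3 to day 28 within each diet. In 79 of the 80 genes the LF and HF levels moved in opposite directions between the days, beside 56.2% of all genes tested, and in Rgcc both changes were positive, 0.78 on LF and 0.03 on HF. A called difference favours such opposite movement, so the count is a description. The LF change was the larger in 47 genes and the HF change in 33. Few of these changes were called on their own: 11 on LF (20 of all genes, 0.345%), 7 on HF (32 of all genes, 0.552%) and none on both. The LF mice ate low fat diets in the run-in and in the study. Age, time on the study diet and the set of animals cannot be told apart in their changes.

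Ebp rose by 0.64 on LF between the days (adjusted p = 0.0498), and its HF change was -0.54 (adjusted p = 0.0871). Casp8 rose by 1.28 on LF (adjusted p = 0.0485), while Slc43a1 fell by 1.20, Pik3ip1 by 0.84 and Stat5b by 0.36 on LF, each at an adjusted p of 0.0485. On HF, Pon3 fell by 0.86 (adjusted p = 0.0194) and Pcolce by 0.69 (adjusted p = 0.00243). For Pcolce the LF change was 0.17 (adjusted p = 0.428). In Ebp, Casp8, Slc43a1, Pik3ip1 and Stat5b the LF change alone was called, and in Pon3 and Pcolce the HF change alone.

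**Figure D3:**
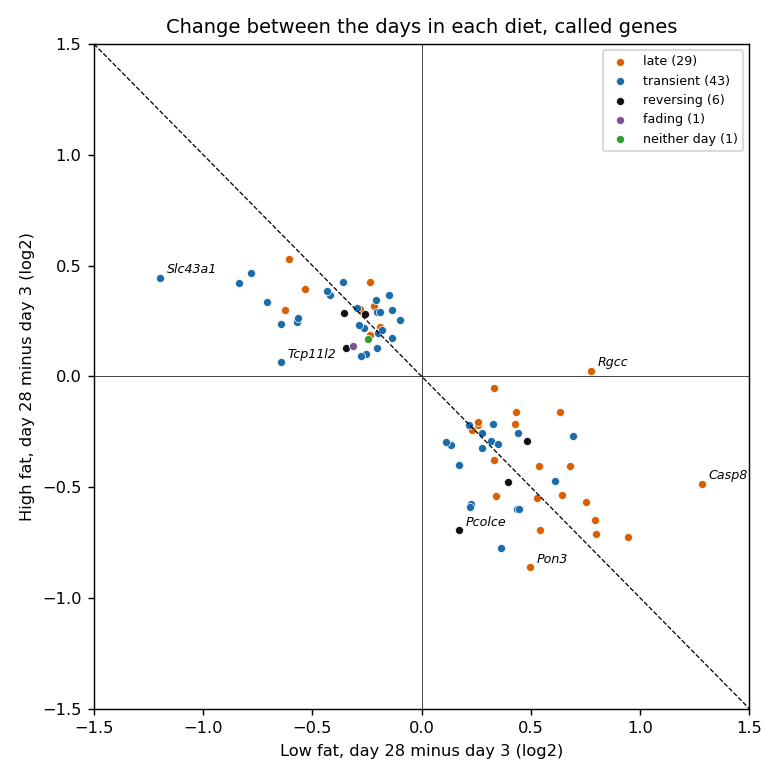
Each point is 1 of the 80 called genes, with its day 28 minus day 3 change on LF on the horizontal axis and on HF on the vertical axis, both in log2 units, coloured by pattern. The dashed line marks changes of equal size and opposite sign. All points but Rgcc lie in the upper left or lower right field, Pcolce and Pon3 with the larger change on HF and Casp8 and Slc43a1 with the larger change on LF.

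Gene lists were described by the median difference of their tested members and by how many passed, beside a median of 0.00 over all genes. Among lipid lists, the fatty acid and triglyceride synthesis list had a median of -1.31 over 14 tested genes. None of these was called, 10 were lower at an unadjusted p under 0.05 (71.4%, beside 9.74% of all genes) and 1 was higher, Gpam, at 0.62. Its members were called lower on HF in 6 cases at day 3, beside 6.87% of all genes, and in 12 at day 28, beside 7.18%. Thrsp, a regulator of lipid synthesis, went from -1.65 ± 0.42 to -3.60 ± 0.42 (difference -1.95 ± 0.59, adjusted p = 0.0813), and Fasn, fatty acid synthase, from -3.26 ± 0.75 to -5.98 ± 0.75 (difference -2.72 ± 1.06, adjusted p = 0.173). Scd1, the desaturase that makes oleate, had a difference of -2.01 ± 0.71 (adjusted p = 0.133).

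The cholesterol synthesis list had 4 tested genes of 19, which included Ebp (negative) and Fdft1 (positive) as called members. Insig1, which holds back the sterol-sensing machinery, went from 0.01 ± 0.29 to -1.50 ± 0.29, and its difference of -1.51 ± 0.42 was not called (adjusted p = 0.0603). Nsdhl, a sterol dehydrogenase, had -0.66 ± 0.29.

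Adipocyte markers had negative differences beside these lists. All 10 tested members of 14 had a negative difference, beside 2889 of 5793 genes, with a median of -1.78. None was called, and 6 were lower at an unadjusted p under 0.05 (60%, beside 9.74% of all genes). Adipoq, the fat cell hormone adiponectin, went from -1.18 ± 0.49 to -2.88 ± 0.49 (difference -1.70 ± 0.69, adjusted p = 0.189). Cidea, a lipid droplet protein of brown and white fat, went from -1.88 ± 0.85 to -5.59 ± 0.85 (difference -3.71 ± 1.20, adjusted p = 0.105). Ucp1, the uncoupling protein of brown fat, had a difference of -2.28 ± 1.45 (adjusted p = 0.408), and Fabp4 of -0.73 ± 0.25 (adjusted p = 0.129). Not all members were lower on HF. Car3 was higher, at 0.40 ± 0.09 and 0.28 ± 0.09 (difference -0.12 ± 0.13), and Nnat was at 1.13 ± 0.89 and -0.20 ± 0.89. The mean over the 10 markers ran from 5.95 to 8.70 on LF and from 5.51 to 8.87 on HF at day 3, and from 7.63 to 9.75 on LF and from 5.33 to 6.73 on HF at day 28. HF day 3 replicate 5 stood above all LF arrays of that day, and without it the median of the list was -1.27.

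With the adipocyte marker mean of each array as a covariate, 6 genes had a called difference, among them Pcolce, Pon3, Slc43a1 and Tspo of the 80. The covariate itself varied with the tested difference. Its group means were 7.67 on LF and 6.53 on HF at day 3, and 8.81 on LF and 5.88 on HF at day 28. Why fewer genes were called in this fit was not tested. All 80 kept their sign and an unadjusted p under 0.05, and the median ratio of the new to the old size was 0.881. Pon3 stood at -1.03, Pcolce at -0.87, Tspo at -0.79 and Slc43a1 at 1.98, each at an adjusted p of 0.0494. Of the others, Csad moved to -0.79 (adjusted p = 0.213), and Ebp to -0.97 (0.0769). The median of the fatty acid and triglyceride synthesis list moved from -1.31 to -0.36 in the same fit.

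Immune and matrix lists were also negative. All 14 tested macrophage markers had negative differences, beside 2889 of 5793 genes, with a median of -0.85. None was called, and 8 were lower at an unadjusted p under 0.05 (57.1%, beside 9.74% of all genes). Lgals3 and Tyrobp, both of phagocytes, had differences of -1.93 and -1.49, and C1qa, a complement gene, went from -0.58 ± 0.27 to -1.51 ± 0.27 (difference -0.93 ± 0.39, adjusted p = 0.199). The mean of the macrophage markers ran from 5.90 to 7.31 on LF and from 5.74 to 6.74 on HF at day 3, and from 6.31 to 7.53 on LF and from 5.45 to 6.17 on HF at day 28. The part of these cells in the results for Capg, Cyba, Casp8 and S100a4 was not tested.

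The extracellular matrix list had a median of -0.48 over 27 tested genes, with Sparc called and 24 negative. At an unadjusted p under 0.05, 13 were lower (48.1%, beside 9.74% of all genes). The median effect of the list was 0.26 at day 3 and -0.15 at day 28. Postn, periostin, had a difference of -1.38 ± 0.54, Col1a2 of -0.85 ± 0.36 and Bgn, biglycan, of -0.48 ± 0.13, and none of these 3 was called. The mean of the list ran from 7.62 to 8.44 on LF and from 8.01 to 8.40 on HF at day 3, and from 7.68 to 8.27 on LF and from 7.73 to 7.94 on HF at day 28. All 12 fibroblast and tendon markers had negative differences (median -0.38), beside 2889 of 5793 genes, with Pcolce called. Of 14 endoplasmic reticulum stress genes, 6 were lower at an unadjusted p under 0.05 (42.9%, beside 9.74% of all genes) and none was called. Among the 6 were Pdia6 at -0.53 and Creld2 at -0.71.

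Endothelial markers had a median of -0.17 over 12 genes and smooth muscle and pericyte markers of -0.16 over 7, with no call in either. No lymphocyte, neutrophil or nerve marker passed the filter on dim genes, and the highest mean level of any was 2.24, 3.20 and 2.11 in that order. The erythroid list had 2 tested genes and no call.

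Lists with a positive median were fewer. All 11 tested clock genes had a positive difference (median 0.41), beside 2904 of 5793 genes, with none called and 3 higher at an unadjusted p under 0.05 (27.3%, beside 9.06%). Nr1d1, a repressor of the clock, went from -0.47 ± 0.18 to 0.39 ± 0.18 (difference 0.86 ± 0.26, adjusted p = 0.0809), and Rora, which acts on the same sites, from -0.48 to 0.15 (difference 0.63 ± 0.17, adjusted p = 0.0588). Arntl, an activator of the clock, had a difference of 0.53 ± 0.38 (adjusted p = 0.477). The immediate early list had a median of 0.36 over 12 genes with Ier3 called.

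Of 13 glucocorticoid targets (median 0.22), Klf15 was called and 3 were higher at an unadjusted p under 0.05 (23.1%, beside 9.06% of all genes). Cebpd, a transcription factor, had effects of -1.71 ± 0.31 and -0.59 ± 0.31 (difference 1.12 ± 0.43, adjusted p = 0.169), whereas Fkbp5, a chaperone of the receptor, was at -0.89 ± 0.30 and -0.99 ± 0.30 (difference -0.10 ± 0.43, adjusted p = 0.927). Of 7 protein breakdown genes Sqstm1 was called. Fbxo32, the muscle ubiquitin ligase atrogin-1, had levels of 9.56, 10.68 and 11.59 on LF and 7.17, 9.28 and 9.46 on HF at day 3, which did not overlap, and overlapping levels at day 28. Its difference of 1.68 ± 0.51 was not called (adjusted p = 0.0797). The proteasome list had a median of 0.09 and no call. Of its 23 genes, 5 were higher at an unadjusted p under 0.05 (21.7%, beside 9.06% of all genes).

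Lists of muscle fuel use had medians near 0, with single members further off. Fatty acid uptake and oxidation had a median of 0.03 over 25 genes, median diet effects of 0.32 at day 3 and 0.33 at day 28, and no call. Acadm, a dehydrogenase of fatty acid oxidation, was at 0.37 ± 0.06 and 0.43 ± 0.06 (difference 0.06, 95% interval -0.11 to 0.23). Cpt1b, which admits fatty acids to mitochondria, was at 0.32 ± 0.08 and 0.50 ± 0.08 (difference 0.18, 95% interval -0.05 to 0.42), and Pdk4, which restrains glucose oxidation, at -0.41 ± 0.11 and -0.14 ± 0.11 (difference 0.27, 95% interval -0.06 to 0.60). Oxidative phosphorylation (40 genes) and the tricarboxylic acid cycle (17 genes) had medians of -0.05 and 0.03 with no call. Of the first, 6 genes were lower at an unadjusted p under 0.05 (15%, beside 9.74% of all genes) and none was higher. Cox6a1, a subunit of cytochrome oxidase, had a difference of -1.02 ± 0.27 (adjusted p = 0.0588), whereas Cox6a2 was at 0.04 ± 0.09. Idh3b, a subunit of the mitochondrial isocitrate dehydrogenase, had a difference of -0.72 ± 0.30 (adjusted p = 0.204), whereas Idh3a and Idh3g were at 0.05 and 0.09. In the uptake list Angptl4, which blocks the lipase that frees fatty acids from lipoproteins, had a difference of -1.25 ± 0.63 (adjusted p = 0.292). Glucose handling and insulin signalling had a median of 0.07 over 11 genes with Akt2 called, and Slc2a4 (GLUT4, which carries glucose into muscle on insulin) had a difference of 0.12 ± 0.10 (adjusted p = 0.583).

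The slow fibre list had the largest median diet effect of the lists on both days, 4.01 at day 3 and 3.66 at day 28, and no called difference between the days. It had a median difference of -0.50 over 11 genes, all negative (beside 2889 of 5793 genes), and no gene at an unadjusted p under 0.05. Myh7, the slow myosin heavy chain, was at 5.60 ± 0.92 and 5.02 ± 0.92, and its difference of -0.58 ± 1.30 had a 95% interval of -3.28 to 2.12, too wide to separate a rise from a fall. Myh2, the fast oxidative myosin, was at 1.18 ± 0.23 and 0.99 ± 0.23 (difference -0.20 ± 0.33), and Myh4, the fastest, had a difference of 0.10 ± 0.06. When the slow fibre mean entered the fit as a covariate, 116 genes had a called difference, 79 of the 80 among them.

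**Figure D4:**
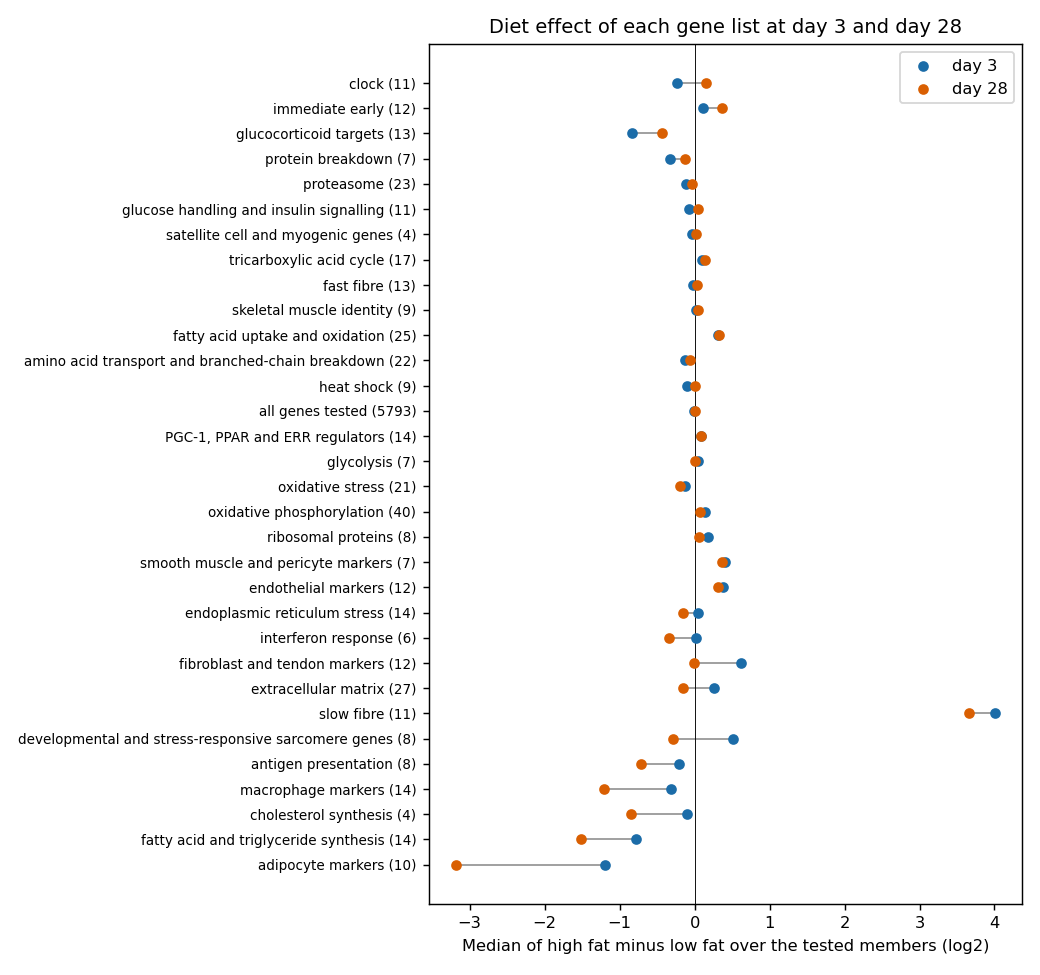
The points give the median HF minus LF difference in log2 units at day 3 (blue) and day 28 (orange). Shown are the gene lists with 4 or more tested members and all genes tested. The number of tested genes is in parentheses, and the order is by the median difference between the days. Adipocyte markers moved from -1.19 to -3.18, extracellular matrix genes crossed from 0.26 to -0.15 and clock genes from -0.23 to 0.15, whereas fatty acid uptake and oxidation genes stood at 0.32 and 0.33.

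**Figure D5:**
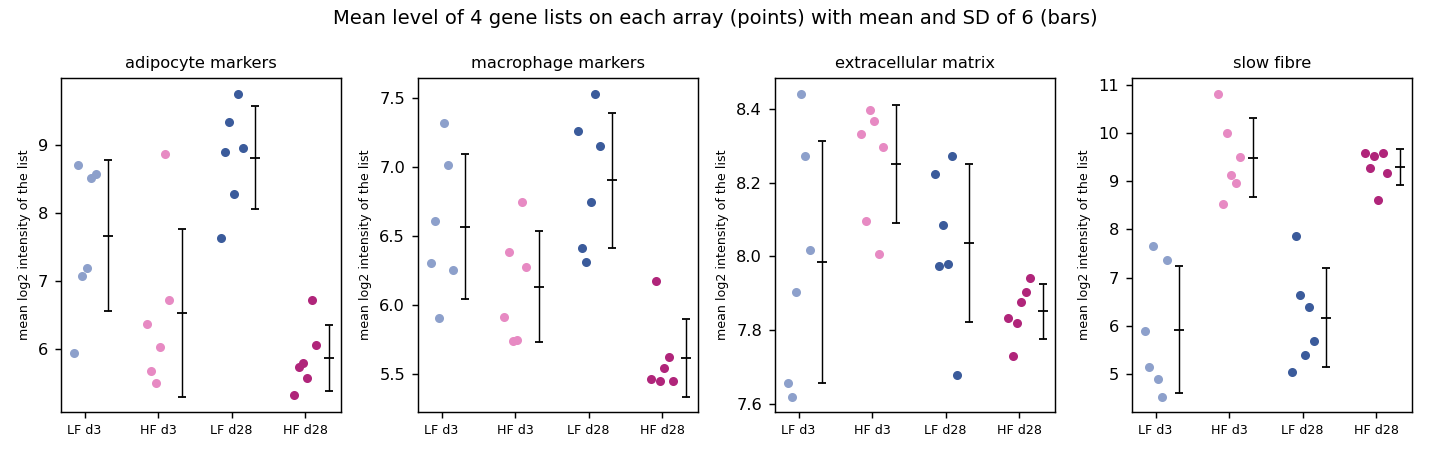
Each point is the mean log2 intensity of a list on 1 array, with the group mean and SD of the 6 arrays beside it. At day 28 all 6 LF arrays lie above all 6 HF arrays for adipocyte and macrophage markers, while at day 3 the diets overlap in both, and slow fibre genes are higher on HF on both days.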

How the data were processed

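The deposited values are linear intensities, 1 for each probe set on each array, which the authors computed with GCRMA per the submitters' processing notes (version not given in the sources used here). GCRMA corrects background from probe sequence and normalizes across arrays, so values of dim genes rest on that correction. Of 16361 probe sets, 14771 had 1 gene symbol, 589 had several and 937 were not listed in the annotation used. Where a gene had several probe sets the one of highest mean was kept, which left 14754 genes. Log2 was taken with no offset. Genes with a log2 level over 4 on 6 or more arrays were tested, 5793 in all. The number of arrays limits the precision.

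Group means were fitted over all 24 arrays with limma 3.58.1 in R 4.3.3 (lmFit, eBayes), with 20 residual degrees of freedom and two-sided tests. P-values were adjusted by Benjamini-Hochberg, and genes were called at an adjusted p under 0.05. Errors are SE. Mice are separate animals per the labels. The genes and lists described were chosen with earlier results of these data known. Named were the 8 called genes of largest difference in each pattern, up to 3 called genes per list, and a set list of muscle, lipid, fat, clock and glucocorticoid genes, of which Dbp, Irs1 and Gapdh had no probe set of their own and Per2 was too dim to test. The script was checked on simulated data with known answers for 5793 genes. Of 100 genes given a difference of 0.5, 39 were called, and of 100 given 1, 83 were. Among the unchanged genes 4 were called. The simulated noise was drawn independently for each gene and array, and all changes were upward. These counts therefore do not give error rates for the deposited values. Replicate numbers recur across groups but stand for different mice in each. Deviations of same-numbered arrays correlated at a median of 0.0695 (-0.384 to 0.537), and 15 of 36 pairs exceeded 0.1. For arrays of other numbers the median was -0.0104 (-0.409 to 0.619), and 52 of 180 pairs exceeded 0.1. Whether arrays of the same number shared a processing step was not tested. Alternatives changed the offset, normalization, filter, weights, variance model, covariates, probe set, threshold and arrays.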

Additional observations from a re-analysis of the deposited data

Results flagged for a closer look

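Results are listed here for 1 of 2 reasons, an array far from the other 5 of its group or a diet effect that differed between the days by the test of that difference. Of 132 groups of 6 arrays checked, 8 had such an array, and chance alone gives about 1 in 20. HF day 3 replicate 5 was far from the others in 3 of them, with an adipocyte marker mean of 8.869 (next highest 6.729), Tspo at 7.014 (next 6.084) and Sqstm1 at 10.78 (next lowest 11.3). HF day 28 replicate 2 had the highest macrophage marker mean of its group, 6.175 (next 5.623), and the highest S100a4, 7.113 (next 6.854). LF day 3 replicate 5 was highest for Capg, 5.364 (next 5.114), and lowest for Gcc2, 4.191 (next 4.431). HF day 3 replicate 2 was lowest for Slc43a1, 3.844 (next 4.69).

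The 29 genes named with a called difference between the days are the others. Negative differences on the log2 scale were -1.765 for Casp8, -1.669 for Csad, -1.51 for Gpx8, -1.443 for Tspo, -1.357 for Pon3, -1.318 for Rgs2, -1.233 for Igf1 and -1.177 for Ebp among late genes. They were -1.14 for Selenom, -1.085 for Emp1, -1.041 for Gimap4 and -1.033 for S100a4 among transient genes, and -0.8716 for Fkbp7, -0.8637 for Pcolce and -0.7711 for Capg among reversing genes. Serpinh1 and Sparc stood at -0.7969 and -0.812. Positive differences were 1.645 for Slc43a1, 1.259 for Pik3ip1, 1.248 for Ier3, 1.044 for Ccrl2, 0.881 for Klf15, 0.4843 for Sqstm1 and 0.3954 for Akt2, 0.6433 for Stat5b, 0.5413 for Rprd1b and 0.4761 for Fdft1, and 0.4516 for Exoc7 and 0.4137 for Gcc2.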

How the results depend on the processing

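Counts are given in the order interaction, late, transient and reversing, with 80, 29, 43 and 6 as reported. Without the filter on dim genes, over 14754 genes, they were 6, 3, 2 and 1. With array weights they were 278, 115, 123 and 10, and at an adjusted p under 0.10 they were 271, 93, 138 and 20. With adipocyte marker means as the covariate they were 6, 0, 5 and 0, beside 581 interactions at an unadjusted p under 0.05. The diet effect in that fit was called for 880 genes at day 3 and 46 at day 28. With slow fibre means as the covariate there were 116 interactions, 79 of them shared with the 80, but 2, 3 and 0 by pattern, and in that fit the diet effect was called for 17 genes at day 3 and 26 at day 28. Replicate numbers stand for different mice in each group, and a fit with the replicate block gave 176, 77, 72 and 9. Only 13 of 72 array and group cases correlated best with their own number. An offset of 16, quantile normalization, a stricter filter, a trended robust variance and a second probe set gave 80 to 108 interactions, each within 1.5 times. Without HF day 3 replicate 5 the reversing count was 3. Leaving out 1 array at a time, of which all but LF day 3 replicate 1 and HF day 3 replicate 5 were added after seeing the data, gave 19 to 115 interactions, 4 to 50 late, 9 to 63 transient and 3 to 9 reversing genes. The sign was kept by all 80 genes in every setting that tested them (55 under the stricter filter). Among uncalled genes the sign turned for Myh7 with the slow fibre covariate (0.1869), and for Ucp1 (0.7894) and Glul (0.07769) with the adipocyte covariate. Pon3, Ebp, Tspo, Pcolce, Stat5b, Capg, Rprd1b, Fdft1, Emp1 and S100a4 were called in all 24 fits that left out 1 array, and Igf1 in 17, Rgs2 and Ier3 in 18 each, Selenom in 17 and Gimap4 in 13, with the highest adjusted p of these 5 at 0.0722. The cause of these changes was not tested.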
